A study of Mus musculus with 7 samples.

Results

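The cluster of miR-183, miR-96 and miR-182 is a group of miRNAs made from 3 neighbouring hairpins, and its level was followed in Ago2-bound small RNA from mouse plasma after status epilepticus (SE). Every count of an arm of the hairpins miR-183, miR-96 and miR-182 was taken, and the cluster was chosen from the same libraries, for the higher miR-182-5p in the acute SE libraries. Its levels and ratios in these libraries are therefore a description and were given no test. The counts held 3 members, miR-182-5p, miR-183-5p and miR-96-5p, among 640 mature miRNAs, out of 6 mature arms that RefSeq lists for the 3 hairpins. The 3p arms of the 3 hairpins were not analysed here.

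The cluster is transcribed as 1 precursor in sensory cells, among them photoreceptors, hair cells of the inner ear and neurons of sensory ganglia, where its miRNAs are abundant and are needed for the maturation and upkeep of the cells. Its miRNAs are also made in other tissues, including lymphocytes, epithelia and neuroendocrine cells, so that the name of the cluster does not fix the source of a circulating copy. A mature miRNA finds its targets mainly through its seed, a short stretch near the 5′ end, while Argonaute proteins such as Ago2 hold it and shield it from nucleases in plasma.

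SE was triggered in mice by kainic acid injected into the amygdala, and control mice received PBS in the same place. Each of the 7 libraries came from plasma pooled from 10 mice, with control and SE each sampled after 4 h, after 8 h and after 24 h, and SE once more after 2 weeks. Control plasma of 2 weeks was not analysed here, and the SE library of that time was compared with the 24 h control. Ago2 was immunoprecipitated from the pooled plasma, and the small RNA bound to it was sequenced and counted for each mature miRNA. All libraries came from adult male mice of the strain c57 (C57BL/6JOlaHsd). Midazolam or lorazepam was given after the kainic acid, and whether control mice received either drug is not given in the sources used here. A pool gives 1 library per condition, so no difference below has a replicate check, no p-value is given, and the spread between mice is not known. Values given in a row follow the order of the time-points, 3 for control and 4 for SE. In pooled plasma, fewer releasing cells and less RNA released per cell cannot be told apart.

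Total counts were 2043220, 3529563 and 3412752 for control and 5405357, 3166964, 3718313 and 2541062 for SE, so the 4 h pair held both the shallowest library (control) and the deepest (SE). Most counts were of 1 erythroid miRNA, miR-486b-5p, whose share was lowest in SE 8 h at 62.5% and highest in SE 24 h and control 4 h, at 76.1% in each. Levels are given as CPM, a count scaled by the size of its library, on sizes adjusted by the trimmed mean of M-values (TMM), a scaling that keeps such a dominant miRNA from setting the level of the rest. The TMM factors were 0.853, 1.22 and 1.16 for control and 0.788, 1.15, 0.754 and 1.21 for SE. Intervals are exact 95% Poisson intervals of the counts, or exact binomial ones for a ratio, and cover counting error only.

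A wider interval was also computed for each library, from the value around which counts between 6 and 300 reads gathered. Counts under 6 reads were left out of that search, so a peak among them could not have been found. The value found was 102, 60.2 and 55.1 reads for control and 37.6, 51.9, 45.2 and 33.1 reads for SE. Reads without molecular identifiers are not independent molecules, and a count near this value may stand for a single captured molecule. Counts were therefore also expressed as multiples of it, with Poisson intervals on those multiples.

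The mature sequences of the members are shown because they set which counts could be mistaken for each other, with bases 2 to 8, the seed, in capitals. They are from RefSeq for the assembly GRCm38.p6.
miR-182-5p: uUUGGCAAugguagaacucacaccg
miR-96-5p: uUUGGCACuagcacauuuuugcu
miR-183-5p: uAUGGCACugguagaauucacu

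The 3 members carried 3 different seeds, though close ones. With positions counted from 1 at the 5′ end, miR-182-5p and miR-96-5p had the same bases 2 to 7 and differed within the seed by A8C. Between miR-182-5p and miR-183-5p the seed differed by U2A and A8C, and beyond it by C17U and A22U, which made 4 differences over 22 positions. That is more than the 2 mismatches allowed when the reads were aligned. The pair of miR-182-5p and miR-96-5p differed at 11 of 23 positions, and that of miR-183-5p and miR-96-5p at 9 of 22. Among 1679 mature miRNAs in RefSeq, 1 outside the cluster shared bases 2 to 8 or 2 to 7 with a member. This was miR-1271-5p, with the seed of miR-96-5p and bases 2 to 7 of miR-182-5p, and it was not analysed here.

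The 3 hairpins lie on the minus strand of chromosome 6 of GRCm38. In GENCODE M21, Mir182 covers positions 30165918 to 30165992, Mir96 covers 30169446 to 30169551 and Mir183 covers 30169668 to 30169737. Only 116 bases separate Mir96 from Mir183, while 3453 bases separate Mir182 from Mir96, and the whole cluster spans 3820 bases. In that annotation no other gene overlaps a hairpin, and the nearest neighbours are Nrf1, which ends 12459 bases from Mir182, and Rncr4, which starts 3155 bases beyond Mir183. RefSeq places all 3 hairpins inside the long non-coding RNA gene Mirc35hg.

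**Figure D1:**
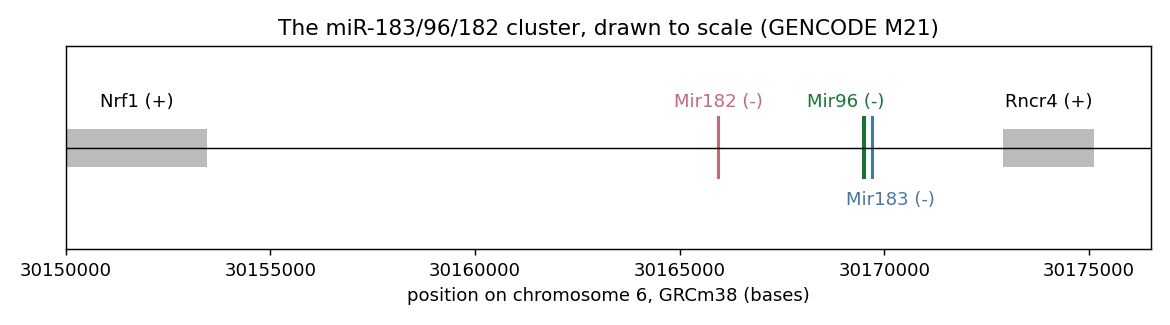
Position in bases on chromosome 6 of GRCm38, drawn to scale, with the hairpins Mir182, Mir96 and Mir183 as coloured bars and the neighbouring genes Nrf1 and Rncr4 in grey, and the strand of each in brackets. Mir96 and Mir183 lie 116 bases apart, and Mir182 lies 3453 bases from Mir96.

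Of the 3 members, only miR-182-5p was abundant in plasma Ago2, and it was counted in every library. It had 1256, 3859 and 2593 counts in the controls and 9550, 7196, 4000 and 2052 counts in SE. These counts were between 12.3 times the low-count value of the library, in control 4 h, and 254 times, in SE 4 h, so control 4 h carried the least precise level. Only 1 miRNA of the cluster thus had enough counts for its level to be followed over all time-points.

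In CPM, the control level of miR-182-5p was 721 at 4 h (681 to 762), 895 at 8 h (867 to 924) and 657 at 24 h (632 to 683). After SE it was 2243 (2198 to 2288), 1976 (1930 to 2022) and 1426 (1383 to 1471) over the acute time-points, and 665 at 2 weeks (636 to 694). The 3 acute SE libraries each stood above every control, the level was highest at 4 h on this scale, and the 2-week library lay within the range of the controls. Of 197 miRNAs that reached 50 CPM in 1 or more of the 6 acute libraries, 21 (10.7%) had the same separation, or 39 of 177 without the 4 h libraries, and since the cluster was chosen by this contrast nothing is read from it.

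**Figure D2:**
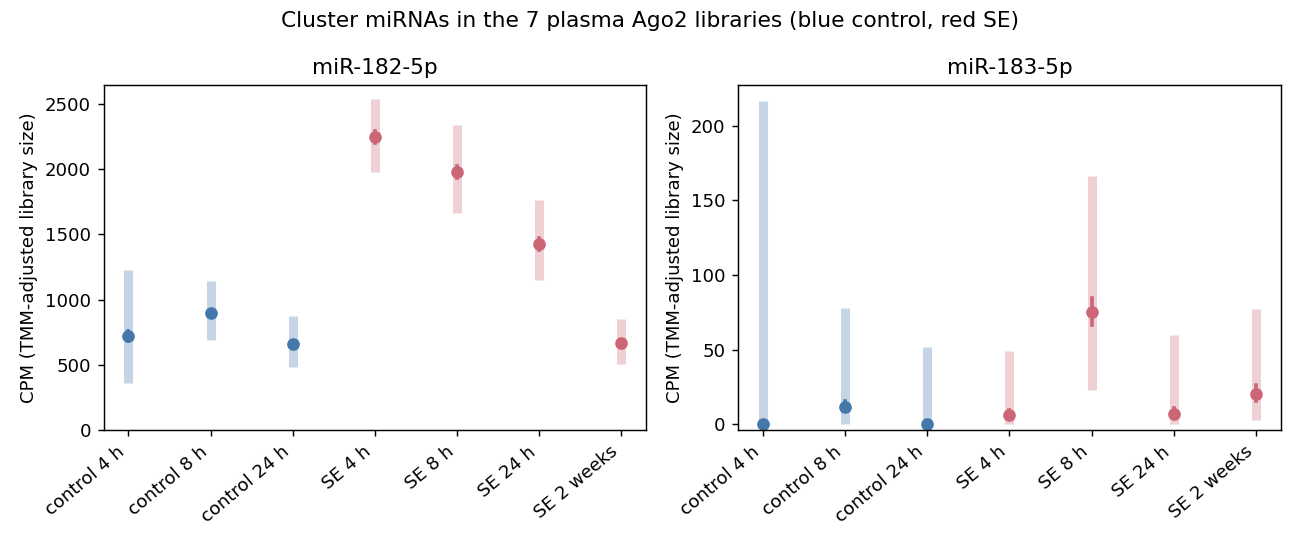
Level in CPM on TMM-adjusted library sizes of miR-182-5p and miR-183-5p in each library, with control in blue and SE in red, thin lines for exact 95% Poisson intervals of the counts and pale bars for the intervals of the counts expressed as multiples of the low-count value. The acute SE libraries sit between 1426 and 2243 CPM for miR-182-5p against 657 to 895 in the controls, and miR-183-5p reaches 75.2 CPM in SE 8 h alone.

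From lowest to highest on TMM-adjusted sizes, the levels of miR-182-5p began with control 24 h, followed by SE 2 weeks, then the controls of 4 h and 8 h, and last SE at 24 h, 8 h and 4 h. By counting error alone, control 24 h could not be told from SE 2 weeks, nor SE 2 weeks from control 4 h, and the other neighbours in that order did not overlap. With the wider intervals, neighbours overlapped everywhere but between control 8 h (688 to 1141 CPM) and SE 24 h (1152 to 1765 CPM), which differed 1.59-fold. The interval of control 4 h (364 to 1230 CPM), not a neighbour of SE 24 h in that order, also reached into that of SE 24 h. The order of the acute SE libraries among themselves was thus not settled between neighbours, although SE 4 h (1976 to 2536 CPM) lay above SE 24 h. The order also moved with the scaling, since SE 8 h was the highest, with 2272 CPM against 1767 CPM in SE 4 h by library size only and 2077 CPM against 2017 CPM by DESeq2's size factors, and by library size only control 4 h (615 CPM) was the lowest.

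On TMM-adjusted sizes, the 3 control libraries differed among themselves up to 1.36-fold, with control 8 h the highest. The median of the acute SE libraries was 2.74 times the median of the controls. Within SE, the acute levels on these sizes were 3.37-fold, 2.97-fold and 2.15-fold that of SE 2 weeks. These ratios depended on the scaling. With library size only, the acute levels were 1767, 2272 and 1076 CPM against 808 CPM in SE 2 weeks. Each ratio was then smaller, and that of SE 8 h was the largest. By DESeq2's size factors the acute levels were 2017, 2077 and 1438 CPM against 654 CPM in SE 2 weeks. The time-points of a condition are different pools of mice and not replicates, so the spread among controls joins time with pool.

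Against its own control, miR-182-5p was 3.11-fold higher in SE at 4 h, a log2 ratio of 1.64 with a 95% interval of 1.55 to 1.72, or 0.84 to 2.64 with the wider interval. At 8 h it was 2.21-fold higher, a log2 ratio of 1.14 (1.09 to 1.20, wider 0.71 to 1.60). At 24 h it was 2.17-fold higher, a log2 ratio of 1.12 (1.05 to 1.19, wider 0.60 to 1.67). The ratio was thus past 1.5-fold, the threshold used for a call, at all 3 acute time-points. At 2 weeks the ratio to the 24 h control was 1.01-fold, a log2 ratio of 0.02 (−0.07 to 0.10, wider −0.55 to 0.60), so that no difference was detectable at this depth. The 24 h and 2-week comparisons share the 24 h control, where miR-182-5p was lowest of the 7 libraries on TMM-adjusted sizes.

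Changes past 1.5-fold were common among the miRNAs that reached 50 CPM in a library of the pair. At 4 h, 32.1% of 165 miRNAs were higher and 30.9% lower in SE, and at 8 h 34.8% of 164 were higher and 15.2% lower. At 24 h, 22.9% of 144 were higher and 22.2% lower, and at 2 weeks 19.2% of 156 were higher and 14.1% lower. Many of these passed the filter through 1 library of the pair alone, which favours a difference in its direction, as did 16 of the 53 higher at 4 h and 27 of the 57 higher at 8 h, whereas miR-182-5p passed it in every library. Set among all, the ratio of miR-182-5p was the 14th, 32nd, 16th and 78th from the highest, in order of time. Of 124 miRNAs that could be compared at each acute time-point, 9 (7.26%) were at least 1.5-fold higher every time, miR-182-5p among them. Being higher in SE at a single time-point therefore did not set miR-182-5p apart from many other miRNAs.

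**Figure D3:**
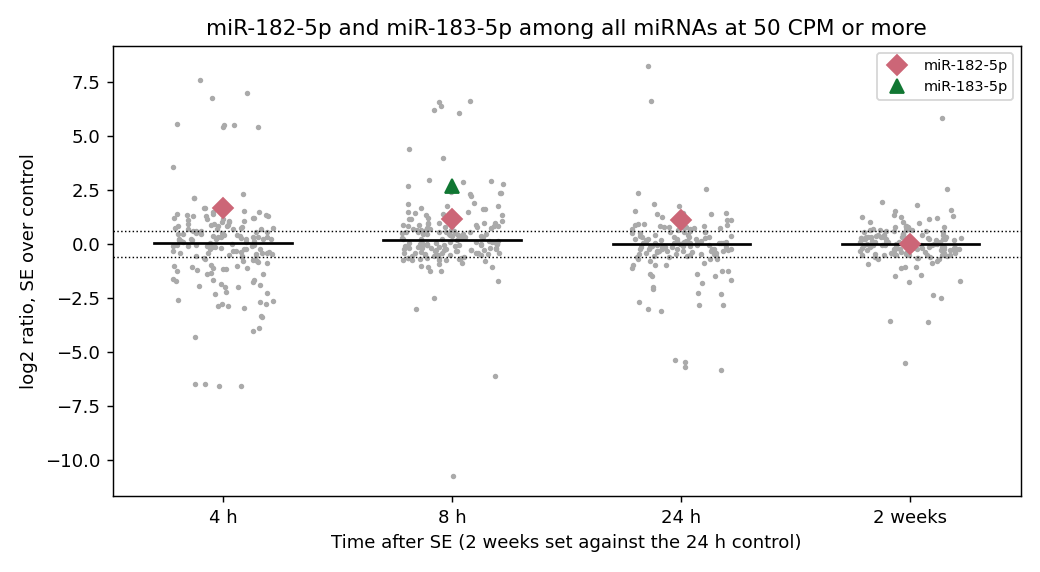
Log2 ratio of SE over control for every miRNA that reached 50 CPM in a library of the pair (grey points) at each time after SE, with black lines at the medians, dotted lines at 1.5-fold either way and counts of 3 or fewer set to 3. The red diamond of miR-182-5p lies at 1.64, 1.14, 1.12 and 0.02 from 4 h to 2 weeks, and the green triangle of miR-183-5p at 2.67 at 8 h.

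The scaling of the libraries mattered most at 24 h, where SE 24 h and its control differed most in TMM factor. With library size only, the median log2 ratio of all miRNAs at 24 h moved from −0.02 to −0.64, and the split past 1.5-fold moved from 33 higher and 32 lower to 13 higher and 75 lower. On that scale miR-182-5p had a log2 ratio of 0.50 at 24 h, still higher in SE but no longer past 1.5-fold. Its level in SE 24 h, 1076 CPM of the plain total, then lay just below that of control 8 h, 1093 CPM, so that the acute SE and control libraries overlapped, and 8 miRNAs had the separation. Relative to the median miRNA of the same pair, the log2 ratio of miR-182-5p was 1.58, 0.95, 1.14 and 0.00 in order of time, which no scaling can change.

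Ranks within a library need no scaling. By rank, miR-182-5p was the 49th, 43rd and 50th most counted miRNA in the controls and the 28th, 28th, 32nd and 47th in SE. Here too the 3 acute SE libraries lay apart from the other 4. With miR-486b-5p left out of the total, miR-182-5p made up 0.257%, 0.336% and 0.230% of the counts in the controls and 0.544%, 0.607%, 0.450% and 0.220% in SE, with the same libraries apart.

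The miRNAs next to it in level changed with its rank. Just above and below it stood miR-5108 and miR-127-3p in the first control, miR-423-3p and miR-181b-5p in that of 8 h, and miR-186-5p and let-7b-5p in that of 24 h. In SE the places were taken by miR-140-3p and miR-126a-5p at 4 h, miR-148a-3p and miR-140-3p at 8 h, miR-30e-5p and miR-375-3p at 24 h, and miR-101b-3p and miR-328-3p at 2 weeks. In plasma Ago2, the level of miR-182-5p was thus close to that of miRNAs from many sources, among them the endothelial miR-126a-5p and the neuroendocrine miR-375-3p.

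The partner miR-183-5p, made from the other end of the cluster, was scarce. It had 0, 51 and 0 counts in the controls, and the floor of 3 counts, which covers counting error only, lay at 1.72 CPM in control 4 h and 0.760 CPM in control 24 h. By the wider interval these 0 counts allow up to 217 CPM and 51.5 CPM, which for control 4 h is above the highest level in SE. In SE it had 27, 274, 19 and 63 counts. It was thus counted in 3 of 3 acute SE libraries and in 1 of 3 controls, but outside SE 8 h each count was under 2 times the low-count value of its library, at 0.847 times in control 8 h and 0.718, 0.420 and 1.90 times in SE of 4 h, 24 h and 2 weeks. Counts of that size cannot be told from 1 or 2 captured molecules, whereas the count of SE 8 h was 5.28 times the low-count value.

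As levels, miR-183-5p stood at 11.8 CPM in control 8 h (8.81 to 15.6) and 75.2 CPM in SE 8 h (66.6 to 84.7). The other SE libraries had 6.34 CPM at 4 h (4.18 to 9.23), 6.78 CPM at 24 h (4.08 to 10.6) and 20.4 CPM at 2 weeks (15.7 to 26.1). SE 8 h was the only library in which it passed 50 CPM, so it entered the comparison through that library alone. At 8 h it was 6.36-fold higher in SE, a log2 ratio of 2.67 (2.23 to 3.13) and the 12th highest of 164 at that time-point, where 34.8% were called higher. With the wider intervals, control 8 h (0.353 to 77.8 CPM) and SE 8 h (23.1 to 166 CPM) overlapped. At the other time-points the control had 0 counts. Against 3 counts in the control, the level in SE was 3.68-fold at 4 h, 8.91-fold at 24 h and 26.8-fold at 2 weeks. These ratios leave out the counting error of the SE count and are not bounds. With the wider intervals SE spanned 0.224 to 49.2 CPM at 4 h, 0 to 59.4 CPM at 24 h and 2.60 to 77.5 CPM at 2 weeks. Each overlapped its control, and no difference was detectable.

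The middle hairpin gave almost no counts. For miR-96-5p, the member whose mutation is known to cause progressive hearing loss, 6 libraries had 0 counts and SE 2 weeks had 1 count, a level of 0.324 CPM. The floor of 3 counts, which covers counting error only, lay between 0.696 CPM in control 8 h and 1.72 CPM in control 4 h. By the wider interval, 0 counts allow up to 32.6 CPM in SE 4 h and up to 217 CPM in control 4 h. At this depth miR-96-5p was therefore not detectable, and no ratio is given for it.

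The proportion of the members to each other could be followed only loosely. For each count of miR-183-5p there were 354, 26.3, 211 and 32.6 of miR-182-5p in SE and 75.7 in control 8 h. The other controls had 0 counts of miR-183-5p and give no ratio. Outside SE 8 h these ratios rest on less than 2 low-count values of miR-183-5p, so whether the proportion was fixed cannot be told at this depth. Of the counts of the cluster, miR-182-5p made up between 96.3%, in SE 8 h, and 100%. Over the 7 libraries the Pearson correlation of miR-182-5p with miR-183-5p, on log2(CPM + 1), was 0.52. It rests on 7 libraries that share scaling and differ in depth, and 2 of the values of miR-183-5p were 0.

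The pattern of miR-182-5p over the 7 libraries was most like that of miR-132-3p, miR-152-3p, miR-672-5p, miR-101a-3p and miR-30a-5p, of 201 miRNAs that reached 50 CPM in some library. Their Pearson correlations with it on log2(CPM + 1) were 0.98, 0.95, 0.93, 0.91 and 0.89, against a median of 0.11 for all 201, and 13 were above 0.8. These are descriptions of 7 libraries, and a pattern of 3 acute SE libraries above the rest was what chose miR-182-5p.

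The neuronal, activity-regulated miR-132-3p had 0 counts in the 3 controls and in SE 2 weeks, and its acute levels in SE were 46.0, 46.4 and 13.6 CPM. Its 38 counts in SE 24 h lay under the low-count value of that library, 45.2 reads, and cannot be told from 1 captured molecule. For miR-152-3p the controls stood at 90.1, 140 and 72.7 CPM and SE at 448, 269, 139 and 55.1 CPM, so SE 24 h did not clear control 8 h. For miR-672-5p the controls and SE 2 weeks had 0, and the acute SE libraries had 20.0, 65.1 and 28.5 CPM. By the wider interval, 0 counts allow up to 217, 51.5 and 51.5 CPM in the controls. Each of these is above every acute level of miR-132-3p and above the levels of miR-672-5p in SE 4 h and SE 24 h. The abundant pair miR-101a-3p and miR-30a-5p moved over a narrower range, from 885 CPM in control 24 h to 1862 CPM in SE 4 h and from 5513 CPM in control 4 h to 12270 CPM in SE 4 h. For miR-30a-5p, SE 24 h (7979 CPM) lay below control 8 h (8763 CPM). For miR-101a-3p, SE 24 h (1105 CPM) lay just above control 8 h (1031 CPM) and SE 2 weeks (1071 CPM).

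To set the cluster beside tissues that are known to make it, marker lists were followed in the same libraries. Of 7 miRNAs known from retina and inner ear, all had a count somewhere, and miR-183-5p and miR-96-5p of the cluster were among them. The summed level was 8177, 10632 and 10655 CPM in the controls and 15321, 11595, 13319 and 12877 CPM in SE. Nearly all of it was miR-181a-5p, which is also made in lymphocytes and brain, with a mean of 11695 CPM. Of the less abundant miRNAs on the list, miR-211-5p had 1 count in control 8 h and 38 in SE 2 weeks and 0 elsewhere, and miR-124-3p had 49 counts in SE 24 h and 0 elsewhere. Beside miR-181a-5p and the members of the cluster, the highest level of a sensory marker in any library was 114 CPM, of miR-204-5p in SE 8 h.

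Of the sensory list, only miR-181a-5p passed the filter in both libraries of a pair, and at 4 h it was 1.91-fold higher in SE. There miR-204-5p and miR-9-5p were 2.59-fold and 2.19-fold lower, beside 30.9% of all miRNAs, but they passed through control 4 h alone, with 194 and 122 counts against a low-count value of 102. At 8 h, miR-204-5p was 3.40-fold and miR-9-5p 3.03-fold higher beside miR-183-5p, and all 3 passed through SE 8 h alone, so the filter favoured the 3 of 4 higher, beside 34.8% of all miRNAs, and the median log2 ratio of 1.68, against 0.20. Control 4 h was close to SE 8 h for miR-204-5p (111 against 114 CPM) and for miR-9-5p (70.0 against 78.0 CPM). At 24 h and 2 weeks only miR-181a-5p could be compared, and it stayed within 1.5-fold, with a log2 ratio of 0.31 at 24 h that turned to −0.30 with library size only, and 0.27 at 2 weeks.

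A neuroendocrine miRNA was also high in SE 8 h, the library in which miR-183-5p passed 50 CPM. Of 3 neuroendocrine miRNAs, miR-375-3p was analysed, and miR-7a-5p and miR-7b-5p were not analysed here. The level of miR-375-3p, a miRNA of pancreatic islets, pituitary and gut endocrine cells, was 1586, 1098 and 983 CPM in the controls and 1250, 5758, 1385 and 964 CPM in SE. It was thus 5.25-fold higher at 8 h, where 34.8% of 164 miRNAs were higher, and within 1.5-fold at the other time-points. Its correlation over the 7 libraries was 0.55 with miR-183-5p and 0.57 with miR-182-5p.

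Of 12 neuronal miRNAs, 11 were analysed, miR-153-3p being the exception, and miR-128-3p was the most abundant. Their summed level was 1828, 1611 and 2344 CPM in the controls and 1948, 2426, 2042 and 2036 CPM in SE. At 8 h, 4 of 5 compared were higher, with miR-127-3p 6.79-fold, miR-138-5p 5.13-fold and miR-9-5p, which stands on both lists, 3.03-fold higher and miR-132-3p at 169 counts against 0, while miR-128-3p had a log2 ratio of −0.28. Of the 4, miR-138-5p, miR-9-5p and miR-132-3p passed the filter through SE 8 h alone, which favours a higher value there, also in the median of 2.36 against 0.20 for all miRNAs, of which 34.8% were higher. The controls of some of these differed widely. For miR-127-3p they stood at 640, 137 and 43.8 CPM, and SE at 505, 929, 158 and 67.1 CPM. For miR-9-5p, control 4 h (70.0 CPM) was close to SE 8 h (78.0 CPM). For miR-138-5p the controls had 0, 17.6 and 13.2 CPM against 90.3 CPM in SE 8 h, and for miR-132-3p each had 0 counts. At 4 h, 0 of 3 were higher and 1 was lower, miR-9-5p, which passed through control 4 h alone, beside 32.1% and 30.9% of all miRNAs. At 24 h and 2 weeks 1 of 2 was higher, miR-127-3p, beside 22.9% and 19.2%, and with library size only the other was lower at 24 h. At 4 h miR-132-3p lay under the filter, although its level in SE 4 h, 46.0 CPM against 0 counts in control 4 h, was close to its 46.4 CPM in SE 8 h. The counts at 4 h and 8 h are therefore no measure of a difference between these times, and whether neuronal or endocrine RNA contributed to the cluster's counts was not tested.

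Epithelia, which also make the cluster, were followed through 6 of 7 listed miRNAs, without miR-200c-3p, and the most abundant was miR-203-3p. The summed level was 685, 625 and 421 CPM in the controls and 557, 803, 418 and 353 CPM in SE. At 8 h, 2 of 4 were higher, miR-205-5p by 2.71-fold and miR-429-3p by 2.61-fold, beside 34.8% of all miRNAs, while miR-203-3p had a log2 ratio of −0.41. The controls differed widely among themselves. They stood at 227, 58.9 and 171 CPM for miR-205-5p, against 160 CPM in SE 8 h. For miR-429-3p they stood at 121, 55.2 and 0.507 CPM, against 144 CPM in SE 8 h. At 4 h miR-205-5p and miR-429-3p were lower, by 1.74-fold and 7.44-fold, beside 30.9% of all miRNAs, and miR-429-3p passed the filter through control 4 h alone and had only 210 and 69 counts, about 2 low-count values in each library. At 24 h 1 of 4 was higher and 1 lower, beside 22.9% and 22.2% of all miRNAs, or 0 and 2 with library size only, beside 13 and 75 of 144, and at 2 weeks 0 were higher and 2 lower, beside 19.2% and 14.1%. Of those lower, miR-205-5p at 24 h and miR-200a-3p at 2 weeks passed through control 24 h alone.

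Blood cells and vessels were followed through further lists. Of the 7 erythroid miRNAs, miR-486b-5p was the most abundant and miR-486a-5p was at or under 3 counts in every library. The 7 together took 77.7%, 69.1% and 69.1% of the counts in the controls and 68.7%, 63.9%, 77.3% and 65.2% in SE. Nearly all of that was miR-486b-5p alone. Of the others, miR-451a had only 3, 39 and 81 counts in the controls and 47, 33, 45 and 46 in SE. Of 5 erythroid miRNAs compared, 2 were higher at 4 h, 1 was lower at 8 h, 2 were higher at 24 h and 1 was lower at 2 weeks, against 32.1%, 15.2%, 22.9% and 14.1% of all miRNAs. The 2 at 4 h were miR-144-3p and miR-144-5p, with 0 and 1 counts in control 4 h, and they passed through SE 4 h alone, while miR-92a-3p was past 1.5-fold lower at 4 h under the 3 other scalings and not under this one. With library size only, the 24 h count became 0 higher and 2 lower, beside 13 and 75 of all 144 miRNAs, and SE 24 h is the library where miR-182-5p lost its call on that scale. Among platelet and endothelial miRNAs, of which miR-126a-5p was the most abundant, 3 of 4 were higher at 4 h, beside 32.1% of all miRNAs. These were miR-126a-3p, by 2.19-fold, miR-126a-5p, by 2.00-fold, and miR-222-3p, which had 930 counts against 0 and passed through SE 4 h alone. In control 4 h, miR-126a-3p had only 203 counts against a low-count value of 102. By the wider interval 0 counts in that library allow up to 217 CPM, close to the 218 CPM of miR-222-3p in SE 4 h. None of the 4 was higher or lower at 8 h, and miR-222-3p was lower at 24 h, where it passed through control 24 h alone, and at 2 weeks, beside 22.2% and 14.1% of all miRNAs. With library size only, 2 were lower at 24 h and 0 at 2 weeks, beside 75 of 144 and 17 of 156 miRNAs.

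Leukocytes are a further known source of the cluster, since activated lymphocytes make miR-182-5p. All 6 leukocyte miRNAs listed were counted, led by miR-142a-5p, and 2 of 5 compared were higher at 4 h, miR-142a-3p by 1.65-fold and miR-142a-5p by 1.62-fold, or 0 with TMM over the 2 libraries compared, beside 32.1% of all miRNAs. In control 4 h, miR-142a-3p had only 158 counts against a low-count value of 102. None of the 5 were past 1.5-fold at 8 h or 2 weeks, and 2 were lower at 24 h, beside 22.2% of all miRNAs. With library size only 4 were lower at 24 h, as were 75 of all 144 miRNAs. Of the 3 miRNAs on the liver list, miR-192-5p was the most abundant, and the authors class it as ubiquitous, so it does not mark liver alone. It was 1.72-fold higher at 4 h and 1.67-fold higher at 8 h, beside 32.1% and 34.8% of all miRNAs. Its log2 ratio was 0.52 at 24 h, which turned to −0.10 with library size only, and 0.08 at 2 weeks. The hepatocyte miRNA miR-122-5p had 59, 0, 1 and 55 counts in SE and 0 in the controls, and miR-194-5p had 154, 139, 106 and 0 counts in SE and 0, 0 and 45 in the controls. The summed level of the list was 12050, 13410 and 14454 CPM in the controls and 20770, 22466, 20709 and 15248 CPM in SE. The sum was nearly all miR-192-5p, so it adds no second observation. Like miR-182-5p, miR-192-5p thus lay higher in the 3 acute SE libraries than in the controls. So did 21 of 197 miRNAs (10.7%) in all, miR-181a-5p of the sensory list among them. As for miR-182-5p, the groups of miR-192-5p overlapped with library size only. The part of these sources in the level of the cluster was not tested.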

How the data were processed

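Ago2-bound small RNA of 7 plasma pools was measured, 1 library per condition. The deposited values are raw read counts of 640 mature miRNAs, which the authors obtained with the Chimera tool (BLASTn against miRBase, at most 2 mismatches). All 7 columns were used. Libraries were scaled by TMM in edgeR 4.0.16 (R 4.3.3, limma 3.58.1) over all 7 libraries, and CPM and ratios were computed in Python 3.11.15 (numpy 2.4.6, pandas 2.3.3, scipy 1.17.1, matplotlib 3.10.9). A miRNA was compared at 50 CPM or more of the plain total in either library and called at 1.5-fold, with counts of 3 or fewer set to 3 for a ratio. The low-count value is the peak of a Gaussian kernel density (bandwidth 0.15) fitted to log-transformed counts between 6 and 300.

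The miRNAs named are every arm of the cluster, any with a shared seed, in each list the most abundant and those at the floor in all libraries, the 5 most correlated with miR-182-5p, and its neighbours in level. Other list members named, and those named for a count of 5 or fewer, were chosen after their values were seen. Members and lists were chosen with earlier results of these data known. By name, 551 of 640 miRNAs matched RefSeq. The call rule was tried on simulated counts for the 4 h pair, drawn at an assumed biological coefficient of variation (BCV) of 0.1. There 60 of 60 miRNAs changed 4-fold among 165 were recovered, with 1 false call among 105 unchanged. The number of false calls follows from that assumed spread, without the gathering of low counts, and is no measure of false calls in the real pair. Changes smaller than 4-fold were not simulated, so recovery near 1.5-fold was not tested. Alternatives were library size only, DESeq2 1.42.0 size factors, TMM over the 2 libraries compared, other controls, other filters and a prior count of 2. Further ones were totals without miR-486b-5p and edgeR's exact test at a BCV of 0.1 or 0.4.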

Additional observations from a re-analysis of the deposited data

How the results depend on the processing

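Of 69 alternatives tried over the results, 4 leave the ratio as it was by construction, counts divided by the low-count value, and widen its interval only. Of the other 65, 28 left the value within its interval or, for a count, within 1.5 times, and 37 moved it further. A called direction of a log2 ratio turned in 0. Counts of miRNAs were judged by their total, which has no direction and can hide a moved split. At 24 h with library size only, the total stayed within 1.5 times while 33 higher and 32 lower became 13 and 75. At 4 h, 53 higher and 51 lower became 47 and 55, 46 and 55, or 43 and 60 under the other scalings. Over the 8 other settings, the log2 ratio of miR-182-5p ranged from 1.33 to 1.77 at 4 h and from 1.06 to 1.59 at 8 h, past 1.5-fold in 8 of 8 at both times, from 0.50 to 1.18 at 24 h, past it in 7 of 8, and from −0.43 to 0.17 at 2 weeks, past it in 0. With library size only it was 1.523 at 4 h, 1.055 at 8 h and 0.5017 at 24 h. With DESeq2's size factors it was 1.505 at 4 h and 1.055 at 8 h, and with TMM over the 2 libraries compared 1.478 and 1.059. Without miR-486b-5p it was 1.057 at 8 h and 0.1724 at 2 weeks.

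Against control 4 h the log2 ratios of the later SE libraries were 1.455, 0.9847 and −0.1169, and against control 8 h those of the others were 1.326 (4 h), 0.6725 (24 h) and −0.4291 (2 weeks). Against control 24 h it was 1.771 at 4 h and 1.588 at 8 h, and against the 3 controls pooled 1.541, 1.358, 0.888 and −0.2136 from 4 h to 2 weeks.

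In order of time, the miRNAs past 1.5-fold numbered 104, 82, 65 and 52, and with a filter of 10 CPM 195, 239, 219 and 206, with any count 359, 263, 264 and 250, and with the exact test at a BCV of 0.4 40, 25, 20 and 10. At that BCV lower calls outnumbered higher ones at 4 h, 24 h and 2 weeks, and higher ones did at 8 h only. The miRNAs with all 3 acute SE libraries above all 3 controls numbered 21, and 8 with library size only, without miR-182-5p, 32 with 10 CPM and 32 with any count. Without the 4 h libraries, an alternative chosen after seeing the data, there were 39, with fewer libraries to separate. The causes of the other shifts were not tested. In the main ratios SE and control were matched by time at the 3 acute time-points, while the 2-week ratio used the 24 h control. No test over the 3 matched times was run, since miR-182-5p was chosen on that contrast. Depth limits miR-183-5p and miR-96-5p: at 50 CPM control 4 h holds 102 counts, about its low-count value.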
